A study of Mus musculus with 24 samples.

Results

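The genes described here are 10 markers of macrophages and of their tissue-resident forms, microglia in brain and Kupffer cells in liver. They are Cd68, Csf1r, Adgre1, C1qa, C1qb, C1qc, Tyrobp, Cx3cr1, Clec4f and Marco. They were chosen by symbol, as a list of names, and are 10 of the 55450 genes in the count table. RNA was sequenced from cerebellum, liver and testes of mice lacking Thumpd1 (KO) and of wild-type controls (WT), to ask how the loss of tRNA acetylation alters gene expression in a tissue. There were 24 libraries 4 of each genotype in each tissue, and replicates are numbered 1 to 4 (WT) and 5 to 8 (KO). Thumpd1 is an adapter that the acetyltransferase Nat10 needs to acetylate tRNA. KO mice had been made by Cas9 cuts in exon 1 and exon 4 of the gene in C57BL/6N eggs, WT controls were as a rule littermates of the same age, and mice were 6 to 12 weeks old and of either sex, although Y-linked genes were present at 56.7 CPM or more in all 24 libraries.

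Several knockout lines were founded, and the line behind these libraries was not named in the sources used here. Nor was it stated whether the cerebellum, liver and testes of a given number came from the same mouse, or that replicates came from separate litters. The p-values therefore measure only the spread between these samples. RNA came from pieces of whole tissue, so a lower level of a macrophage gene can stand for fewer macrophages or for less of its RNA in each, and bulk RNA cannot tell these apart. Library totals ranged from 16353797 to 37889615 counts. Thumpd1 stood at 9.19 to 26.3 CPM, counts scaled to a common library total, in the WT libraries and at no more than 1.14 CPM in any KO library. The marker genes of each tissue were abundant in its own 8 libraries, at summed levels of at least 1359 CPM, and the same sums reached at most 5.82 CPM in the other tissues.

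Macrophages settle in every organ, many of them before birth, and renew themselves there under signals from the receptor encoded by Csf1r. Microglia prune synapses and clear debris in brain, Kupffer cells line the liver sinusoids and take up particles from blood, and testicular macrophages lie between the tubules beside the Leydig cells. The complement protein C1q, which tags targets for engulfment, is made chiefly by such cells and is built from chains of C1qa, C1qb and C1qc. Clec4f, a lectin, marks Kupffer cells in mice, and Cx3cr1, the receptor for fractalkine, is a hallmark of microglia.

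All 10 genes are protein-coding in the GENCODE M21 annotation of the mm10 build that the authors counted against. C1qb (ENSMUSG00000036905.8), C1qc (ENSMUSG00000036896.5) and C1qa (ENSMUSG00000036887.5) are neighbours on the minus strand of chromosome 4, at chr4:136880129-136886187, chr4:136889804-136893065 and chr4:136895917-136898803, with 3 exons each. Clec4f (ENSMUSG00000014542.3) lies at chr6:83644542-83656187 (7 exons, minus strand), Cx3cr1 (ENSMUSG00000052336.7) at chr9:119901616-120069879 (4 exons, minus strand) and Marco (ENSMUSG00000026390.7) at chr1:120474538-120505024 (17 exons, minus strand). Cd68 (ENSMUSG00000018774.13) lies at chr11:69664213-69666153 (6 exons, minus strand), Tyrobp (ENSMUSG00000030579.10) at chr7:30413760-30417585 (6 exons, plus strand) and Adgre1 (ENSMUSG00000004730.15) at chr17:57358691-57483527 (22 exons, plus strand). Exons of Cx3cr1 overlap the antisense gene Gm33858, and exons of Csf1r overlap Hmgxb3 on the opposite strand. The strand setting used in counting was not given in the sources used here, so reads of these overlaps cannot be told apart and the values of Cx3cr1 and Csf1r are uncertain to that extent. The other 8 genes have no exon overlap.

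Upstream sequence was examined for the genes with an entry in the RefSeq promoter table (GRCm38.p6), which held 6 of the 10. Its start sites are those of RefSeq and can differ from the ends of the GENCODE genes given above, so that the upstream region of Cx3cr1 lies within its GENCODE span and those of C1qc and Clec4f run into theirs. Adgre1, C1qa, Csf1r and Tyrobp had no entry. The 250 bases before the RefSeq start site are shown for C1qb and C1qc, neighbours on chromosome 4, and for Clec4f and Cx3cr1, the genes with opposite tissue patterns. Each is written 5′ to 3′ on the gene's own strand, which is minus for all 4, and capitals mark each match to GAGGAA or to its reverse complement TTCCTC, a core sequence bound by PU.1, the Spi1 product that directs myeloid development. The regions are chr4:136886201-136886450 for C1qb, chr4:136892915-136893164 for C1qc, chr6:83656117-83656366 for Clec4f and chr9:120068297-120068546 for Cx3cr1.
C1qb: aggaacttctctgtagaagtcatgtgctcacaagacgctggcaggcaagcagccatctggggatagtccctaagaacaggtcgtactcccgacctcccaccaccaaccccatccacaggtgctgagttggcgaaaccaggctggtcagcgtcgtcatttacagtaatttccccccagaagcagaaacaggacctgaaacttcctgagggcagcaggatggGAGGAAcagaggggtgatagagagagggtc
C1qc: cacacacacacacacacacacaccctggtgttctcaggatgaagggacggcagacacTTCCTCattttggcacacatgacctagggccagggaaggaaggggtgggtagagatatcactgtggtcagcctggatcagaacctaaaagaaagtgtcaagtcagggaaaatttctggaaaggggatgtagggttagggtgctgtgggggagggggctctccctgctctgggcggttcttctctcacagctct
Clec4f: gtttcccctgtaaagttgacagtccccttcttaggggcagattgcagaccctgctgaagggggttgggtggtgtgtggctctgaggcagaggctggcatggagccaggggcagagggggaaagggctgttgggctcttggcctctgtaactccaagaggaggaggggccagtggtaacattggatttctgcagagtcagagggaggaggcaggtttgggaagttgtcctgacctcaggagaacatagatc
Cx3cr1: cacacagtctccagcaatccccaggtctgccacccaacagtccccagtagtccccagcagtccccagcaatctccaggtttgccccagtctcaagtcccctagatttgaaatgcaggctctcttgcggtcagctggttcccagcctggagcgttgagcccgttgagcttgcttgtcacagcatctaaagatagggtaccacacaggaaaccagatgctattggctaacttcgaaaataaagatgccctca
C1qb held a match that began 30 bases before its start site, and C1qc held a match on the other strand that began 193 bases before. The upstream sequences of Clec4f and Cx3cr1 held no match. Cd68 and Marco, not shown, each held a match, at 225 and 146 bases. The letters were present in 23.3% of the 32851 promoters of this length, so a match by itself is common, and binding was not measured here.

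In WT mice liver was the richest tissue for 9 of the 10 genes, and Cx3cr1 showed the opposite order. Per kilobase of exon, the scale on which genes of different length can be compared, C1qb led in liver at 28.9 ± 3.47 CPM per kilobase, followed by Clec4f at 25.2 ± 2.19, C1qa at 24.9 ± 2.17 and C1qc at 21.1 ± 3.12 (SD, n = 4). Each neighbour in this order lay within the combined SD of the next. Compared within each WT liver library, however, C1qb always stood above Clec4f and C1qa above C1qc, while Clec4f and C1qa changed order between libraries. Csf1r stood at 9.80 ± 1.36, Tyrobp at 8.32 ± 0.760, Cd68 at 4.51 ± 0.825 and Adgre1 at 3.40 ± 0.481 CPM per kilobase, where Csf1r and Tyrobp overlapped within their SD, as did Cd68 and Adgre1, and Marco and Cx3cr1 were the lowest at 0.398 ± 0.245 and 0.101 ± 0.0254 (SD, n = 4). Within every WT liver library Csf1r nonetheless stood above Tyrobp and Cd68 above Adgre1. In cerebellum C1qa and C1qb led at 7.19 ± 1.02 and 6.54 ± 1.03 CPM per kilobase, which overlapped, ahead of C1qc at 4.32 ± 0.531 and Csf1r at 3.86 ± 0.394, which overlapped too (SD, n = 4). Within every WT cerebellum library C1qc stood above Csf1r. Tyrobp at 2.67 ± 0.928, Cx3cr1 at 2.14 ± 0.0532, Cd68 at 1.21 ± 0.143 and Adgre1 at 0.487 ± 0.130 CPM per kilobase followed. In testes C1qb alone stood at the top, at 7.61 ± 1.11 CPM per kilobase against 4.39 ± 0.456 for C1qa and 3.36 ± 0.298 for C1qc (SD, n = 4). Csf1r at 1.69 ± 0.0688, Cd68 at 1.43 ± 0.182, Adgre1 at 1.35 ± 0.139, Tyrobp at 1.22 ± 0.283 and Cx3cr1 at 1.02 ± 0.110 CPM per kilobase formed a lower set in testes. The plot of WT levels by tissue sets the 10 genes side by side.

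**Figure D1:**
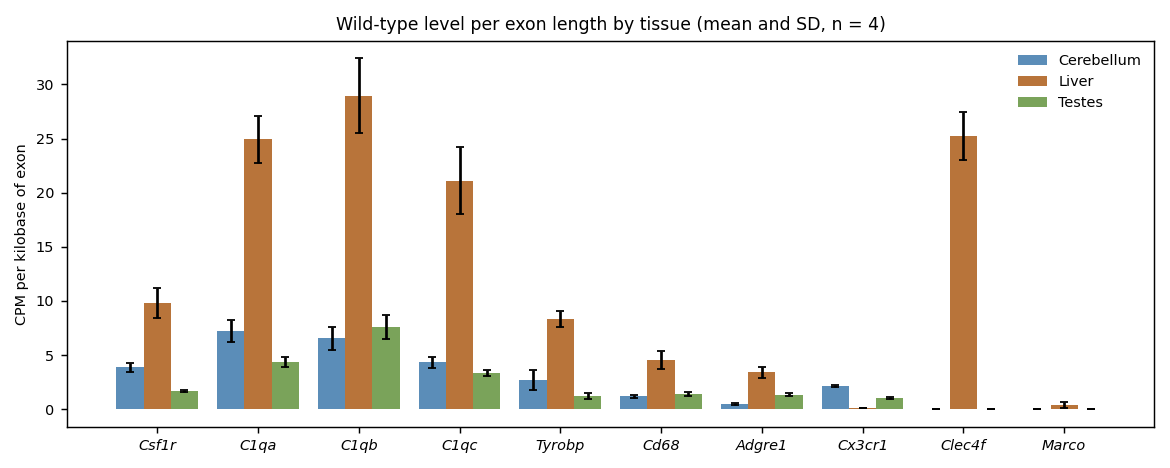
Level in wild-type libraries as CPM per kilobase of exon (vertical axis) for each of the 10 genes (horizontal axis), with bars for the mean of 4 libraries of cerebellum, liver and testes and lines for the SD. Liver bars are the tallest for every gene but Cx3cr1, whose liver mean is 0.101, and Clec4f has a bar only in liver, at 25.2.

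The tissues were then compared in a limma-voom model of the 12 WT libraries, with TMM (trimmed mean of M-values) scaling. This model tested 21697 genes, and tissues differ so widely that 87.5% of them passed an adjusted p of 0.05 between cerebellum and liver, 90.6% between testes and liver and 90.3% between testes and cerebellum. Clec4f reached the level limit only through its liver libraries and was at or near 0 elsewhere, so it is left out of the counts and described by its reads below. Cx3cr1 was below the limit in all 4 liver libraries and reached it through cerebellum and testes, so its difference from liver is left out of the counts too and given as a description. The other 7 members were all lower in cerebellum and in testes than in liver and passed each time. Between testes and cerebellum 7 of 8 members passed, Cx3cr1 included. These counts are near the share of all genes, and the sizes are what the comparison adds. Marco was below the level limit of 1 CPM in 4 libraries and was not tested.

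Csf1r, the growth-factor receptor on which macrophages depend, was measured at 59.8, 60.3, 61.4 and 44.8 CPM in WT liver, at 22.1, 25.4, 21.6 and 19.99 CPM in WT cerebellum and at 9.88, 10.02, 9.19 and 10.02 CPM in WT testes. The 3 tissues did not overlap. The fitted log2 difference was -2.54 ± 0.107 (SE) for cerebellum against liver (limma adjusted p = 2.13e-10) and -0.93 ± 0.139 for testes against cerebellum (limma adjusted p = 3.74e-05). C1qa followed the same order, with -2.99 ± 0.111 and -0.47 ± 0.143 on the log2 scale (limma adjusted p = 6.22e-11 and 0.00829). C1qb and C1qc were lower in cerebellum than in liver by -3.34 and -3.47 on the log2 scale, but between testes and cerebellum they parted from C1qa. C1qb was 0.45 ± 0.171 higher in testes (limma adjusted p = 0.0243), and C1qc differed by -0.12 ± 0.175 with a 95% interval from -0.50 to 0.27 (limma adjusted p = 0.533).

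Adgre1 encodes F4/80, the classical surface antigen of mouse macrophages. Its WT means were 11.01 ± 1.56 CPM in liver, 4.38 ± 0.449 in testes and 1.58 ± 0.419 in cerebellum (SD, n = 4), so testes ranked above cerebellum, opposite to Csf1r. The log2 difference of testes against cerebellum was 1.74 ± 0.220 (SE, limma adjusted p = 8.48e-06), the largest of these 8 members in that contrast. Cd68, a glycoprotein of lysosomal membranes, differed in the same direction by 0.49 ± 0.202 (limma adjusted p = 0.0366). Tyrobp, the adaptor that passes on signals from Trem2 and related receptors, went the other way at -0.84 ± 0.287 (limma adjusted p = 0.0154). The calls of Cd68 and C1qb between testes and cerebellum did not hold when libraries were scaled by their totals alone, where the log2 differences were 0.24 and 0.20 (limma adjusted p = 0.301 and 0.288). The Cd68 call was also lost without cerebellum WT replicate 1, 2 or 3 or testes WT replicate 2 or 3 (limma adjusted p from 0.0594 to 0.0957), that of C1qb without cerebellum WT replicate 3 or 4 or testes WT replicate 2 (0.0576 to 0.0729), and that of Tyrobp without cerebellum WT replicate 2 (-0.65, limma adjusted p = 0.0520).

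Cx3cr1 was measured at 9.66, 9.99, 9.47 and 9.49 CPM in WT cerebellum, at 4.61, 3.97, 5.18 and 4.56 CPM in WT testes and at 0.620, 0.389, 0.436 and 0.370 CPM in WT liver. Cerebellum stood above testes and testes above liver without overlap. The log2 difference was 3.20 ± 0.155 (SE) in cerebellum relative to liver and 2.37 ± 0.161 in testes relative to liver, given with no test, and -0.83 ± 0.102 for testes against cerebellum (limma adjusted p = 6.47e-06). Liver held only 10 to 20 counts of Cx3cr1 per WT library.

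Clec4f, the Kupffer cell lectin, was measured at 68.0, 62.4, 63.9 and 55.1 CPM in WT liver. It had 0 counts in all 8 cerebellum libraries, where 3 counts allow at most 0.183 CPM in any library, and 0 to 3 counts in each testes library. Against the limit of 3 counts in the shallowest WT cerebellum library, Clec4f was at least 382-fold higher in WT liver. The 4 WT testes libraries held 2 counts in all, which puts liver 3949-fold above testes on the CPM scale with a counting interval of 1093 to 32612 (95%, exact Poisson for the 2 counts, counting error only). Marco, a scavenger receptor that binds bacteria and particles, was scarce even in liver, with 33, 23, 38 and 3 counts in the WT libraries and 14, 16, 13 and 28 in the KO libraries. WT replicate 4, at 3 counts, stood below the other 7. Testes had 0 Marco counts in all 8 libraries and cerebellum had 1 count, in KO replicate 5.

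The scale matters for differences between tissues. The median of all tested genes for cerebellum against liver was -0.02 with TMM and 1.18 with library totals alone, for testes against liver it was 0.83 and 1.78, and for testes against cerebellum 0.37 and 0.11. The noncoding RNAs Gm26917, Gm42418, Rpph1, Rn7sk, Rn7s1 and Rn7s2 made up 17.5% to 31.0% of liver counts and at most 7.41% of those in the other tissues. With library totals alone the difference of cerebellum from liver was -1.34 for Csf1r and -2.13 for C1qb, nearer to 0 than with TMM, and 4.40 for Cx3cr1, farther from 0, and every tested member kept its direction in the 3 contrasts.

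Ratios within a library do not depend on its scaling. The C1q chains summed to 7.68 ± 0.375 times Csf1r in WT liver and 9.09 ± 1.09 times in WT testes, per kilobase, and to 4.69 ± 0.508 times in WT cerebellum (SD, n = 4). Cerebellum libraries did not overlap those of liver or testes. Cx3cr1 per Csf1r was alike in WT cerebellum and testes, at 0.559 ± 0.0426 and 0.603 ± 0.0890, and stood at 0.0103 ± 0.0022 in liver (SD, n = 4). Adgre1 per Csf1r was 0.125 ± 0.0269 in WT cerebellum, 0.349 ± 0.0403 in liver and 0.800 ± 0.104 in testes (SD, n = 4), with no overlap between tissues. Relative to the receptor, testes thus held the most F4/80 RNA and liver the least fractalkine receptor RNA.

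**Figure D2:**
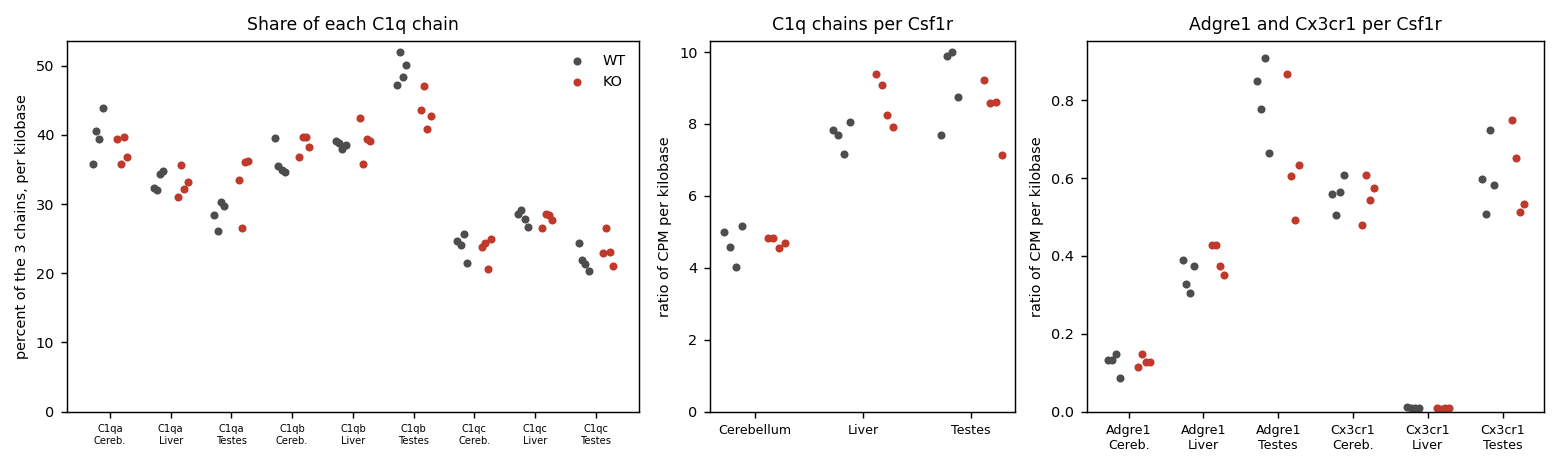
Composition of the macrophage RNA in each library, WT in grey and KO in red, with 4 points per group. The left panel gives the percent of each C1q chain among the 3 chains per kilobase, the middle panel the sum of the chains per Csf1r and the right panel Adgre1 and Cx3cr1 per Csf1r, and in testes the C1qb share is 47.2% to 52.0% for WT points and 40.9% to 47.0% for KO points.

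The share of the 3 chains also differed by tissue. C1qa made up 39.9% ± 3.35 of the C1q chains in WT cerebellum, 33.3% ± 1.35 in WT liver and 28.6% ± 1.85 in WT testes (SD, n = 4), while C1qb made up 36.1% ± 2.33, 38.6% ± 0.486 and 49.4% ± 2.10. C1qb was the largest chain in every WT library of liver and of testes. In KO testes the C1qb share was 43.6%, 47.0%, 40.9% and 42.8% in replicates 5 to 8, below the WT values of 47.2%, 52.0%, 48.4% and 50.1%. The groups were apart by little, between 47.0% and 47.2%, and this ratio was not tested. Tyrobp per Csf1r in liver did not overlap either, with 0.745 to 0.987 in the WT and 0.992 to 1.31 in the KO libraries, and was likewise not tested. These were the 2 of 26 ratios and shares, over the 3 tissues, in which WT and KO did not overlap, and 12.7% of all tested genes in liver and 28.6% in testes did not overlap.

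Loss of Thumpd1 was compared with WT in each tissue by limma-voom on 8 quantile-normalized libraries, among genes with at least 1 CPM in at least 4 libraries. No member passed an adjusted p of 0.05 in any tissue. In cerebellum 0 of 8 tested members passed, where 6.44% of 16225 genes did, and 2 had an unadjusted p under 0.05, as did 24.2% of all genes. In liver 0 of 8 passed, against 5.91% of 12816 genes, with 1 unadjusted p under 0.05 beside 23.3% of all genes. In testes 0 of 7 passed, against 20.5% of 19329 genes, with 0 unadjusted p under 0.05 beside 37.0% of all genes. Neither edgeR nor DESeq2, nor any other setting, called a member, and the lowest adjusted p over 16 alternatives per tissue was 0.0524, 0.101 and 0.0753 in cerebellum, liver and testes. Taken singly, the 95% intervals of tested members lay between 0.651-fold and 1.65-fold in cerebellum and 0.848-fold and 1.57-fold in liver. In testes they lay between 0.739-fold and 1.55-fold. Members below the level limit are not covered by these ranges. Without that limit the liver intervals on the log2 scale were -1.56 to 1.43 for Marco and -1.14 to 0.32 for Cx3cr1.

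**Figure D3:**
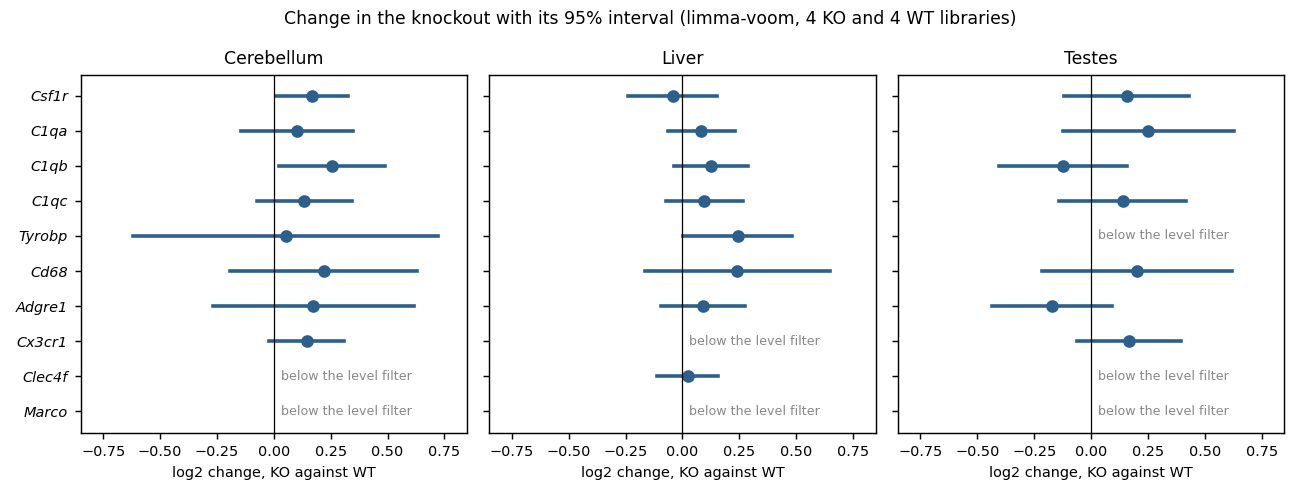
Change in KO against WT on the log2 scale (horizontal axis) for each gene (vertical axis) and tissue, with points for the limma-voom estimate and lines for its 95% interval. In cerebellum all 8 points lie to the right of 0, from 0.05 to 0.25, and genes below the level limit have no point.

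The estimates were nonetheless mostly above 0. All 8 tested members had a positive log2 change in cerebellum, with a median of 0.16, where the median of all genes was -0.01 and 48.2% of genes were above 0. In liver 7 of 8 were positive with a median of 0.09, and in testes 5 of 7 with a median of 0.16, while the medians of all genes were 0.00 in both. With sample quality weights the testes tally turned to 2 of 7 positive, with a median of -0.052, and without testes KO replicate 7 the median was 0.066. With a library left out 6 to 8 members were positive in cerebellum and in liver, with 6 in cerebellum without WT replicate 4. Members of a tissue share its libraries and cells and are not independent of each other. Markers of other cells also moved in cerebellum. Of 6 astrocyte genes 2 were higher in KO (Gfap 0.23 and Gja1 0.15 on the log2 scale), of 6 oligodendrocyte genes 2 were higher (Mag 0.27 and Cnp 0.19), and of 8 neuronal genes 3 were lower (Zic1 -0.21, Gabra6 -0.26 and Neurod1 -0.22) and 1 was higher (Pcp2 0.24). Of 4 tested midbrain genes 2 were higher (Tal1 1.14 and Th 0.46), with a median of 0.47 over the 4, and of 6 choroid plexus genes 0 passed, with a median of -0.72 and summed levels of 10.3 to 1070 CPM in the WT and 13.1 to 356 CPM in the KO libraries. Of 3 tested blood genes 1 was lower (Alas2 -0.58), with sums of 7.76 to 8.67 CPM in the WT and 3.74 to 7.01 CPM in the KO libraries. Of 7 endothelial genes 0 passed, and their summed level was 94.5 to 99.8 CPM in the WT and 107 to 119 CPM in the KO libraries. The part of these differences in the macrophage values was not tested.

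Csf1r in cerebellum was measured at 22.1, 25.4, 21.6 and 19.99 CPM in WT and at 26.3, 24.3, 26.6 and 24.2 CPM in KO. WT replicate 2 lay within the KO range, so the groups overlapped. The log2 change was 0.17 ± 0.0726 (SE), with a limma adjusted p of 0.175. In liver Csf1r stood at 46.2, 47.8, 58.5 and 59.1 CPM in KO, against 59.8, 60.3, 61.4 and 44.8 CPM in WT. KO replicates 5 and 6 and WT replicate 4 formed a lower set, and the other 5 libraries lay within 58.5 to 61.4 CPM. The change was -0.04 ± 0.0888 (limma adjusted p = 0.822). In testes KO libraries held 9.15, 10.7, 14.6 and 13.5 CPM and WT libraries 9.19 to 10.02 CPM, and the change was 0.16 ± 0.125 (limma adjusted p = 0.383).

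C1qb, the chain with the highest change in cerebellum, was measured there at 8.23, 7.76, 5.72 and 6.73 CPM in WT and at 8.82, 8.81, 9.04 and 8.16 CPM in KO. KO replicate 8 fell just below WT replicate 1, so the groups overlapped by a single library on each side. The log2 change was 0.25 ± 0.108 (SE, limma adjusted p = 0.169). In testes C1qb was 6.76, 9.71, 8.39 and 8.26 CPM in WT and 6.94, 8.10, 9.69 and 7.75 CPM in KO, which interleave, with a change of -0.12 ± 0.128 (limma adjusted p = 0.508). In liver it was 26.2 to 34.5 CPM in WT and 29.3 to 35.8 CPM in KO, with a change of 0.12 ± 0.0738 (limma adjusted p = 0.350). The estimate for C1qa was 0.10, 0.08 and 0.25 in cerebellum, liver and testes, and for C1qc 0.13, 0.10 and 0.14, with limma adjusted p from 0.307 to 0.626. In testes C1qa was 8.19 and 6.26 CPM in KO replicates 7 and 8, against 3.89 to 5.01 CPM in WT and 5.09 and 4.36 CPM in the other KO libraries, and without KO replicate 7 its estimate was 0.091.

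Tyrobp in liver was 5.15, 6.15, 5.79 and 5.11 CPM in WT and 6.96, 5.84, 6.70 and 7.37 CPM in KO. Only KO replicate 6 lay within the WT range. The log2 change was 0.24 ± 0.109 (SE, limma adjusted p = 0.208). In cerebellum Tyrobp was thinly covered, with 16 to 60 counts per library, and its 95% interval ran from -0.62 to 0.72. In testes it had 21 to 40 counts per library and stood under the level limit, with a WT mean of 0.813 ± 0.188 CPM and a KO mean of 0.959 ± 0.123 CPM (SD, n = 4).

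Cd68 in liver was 7.13, 5.67, 4.98 and 4.89 CPM in WT and 4.66, 5.18, 7.92 and 8.72 CPM in KO. The KO libraries split into a pair at 4.66 and 5.18 CPM and a pair at 7.92 and 8.72 CPM, and the WT libraries lay between the lowest and the highest of them. The log2 change was 0.24 ± 0.185 (SE, limma adjusted p = 0.475), and the changes in cerebellum and testes were 0.22 ± 0.190 and 0.20 ± 0.191 (limma adjusted p = 0.517 and 0.465). Adgre1 had estimates of 0.17, 0.09 and -0.17 in cerebellum, liver and testes, with limma adjusted p of 0.647, 0.573 and 0.323. Its lowest cerebellum library, WT replicate 4 at 0.969 CPM or 19 counts, stood apart from the other 3 WT libraries at 1.65 to 1.90 CPM, and without it the cerebellum estimate was -0.01.

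Cx3cr1 in testes was 4.61, 3.97, 5.18 and 4.56 CPM in WT and 5.34, 5.43, 5.84 and 5.60 CPM in KO. Every KO library lay above every WT library, the only such case among the 7 tested members in testes, where 28.6% of all tested genes did not overlap in either direction. The fitted log2 change was 0.17 ± 0.105 (SE) with a limma adjusted p of 0.270. In cerebellum WT libraries lay from 9.47 to 9.99 CPM and KO libraries at 9.84, 11.5, 11.3 and 10.8 CPM, so that KO replicate 5 lay inside the WT range, and the change was 0.14 ± 0.0761 (limma adjusted p = 0.268). No member was free of overlap in cerebellum or liver, where 13.8% and 12.7% of genes were. Cx3cr1 in liver, at 0.276 to 0.449 CPM in KO, stood below the level limit.

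Clec4f in liver was 56.6, 62.5, 61.7 and 67.7 CPM in KO, spread over the same range as the WT libraries at 55.1 to 68.0 CPM. The log2 change was 0.02 ± 0.0608 (SE, limma adjusted p = 0.857), with a 95% interval from 0.926-fold to 1.12-fold. It was the narrowest interval of the liver members. The Kupffer-specific member therefore set the closest limit on a change in liver. Marco means were 0.765 ± 0.472 CPM in WT and 0.713 ± 0.265 CPM in KO liver (SD, n = 4), and without a level limit its log2 change was -0.07 with a 95% interval from -1.56 to 1.43.

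**Figure D4:**
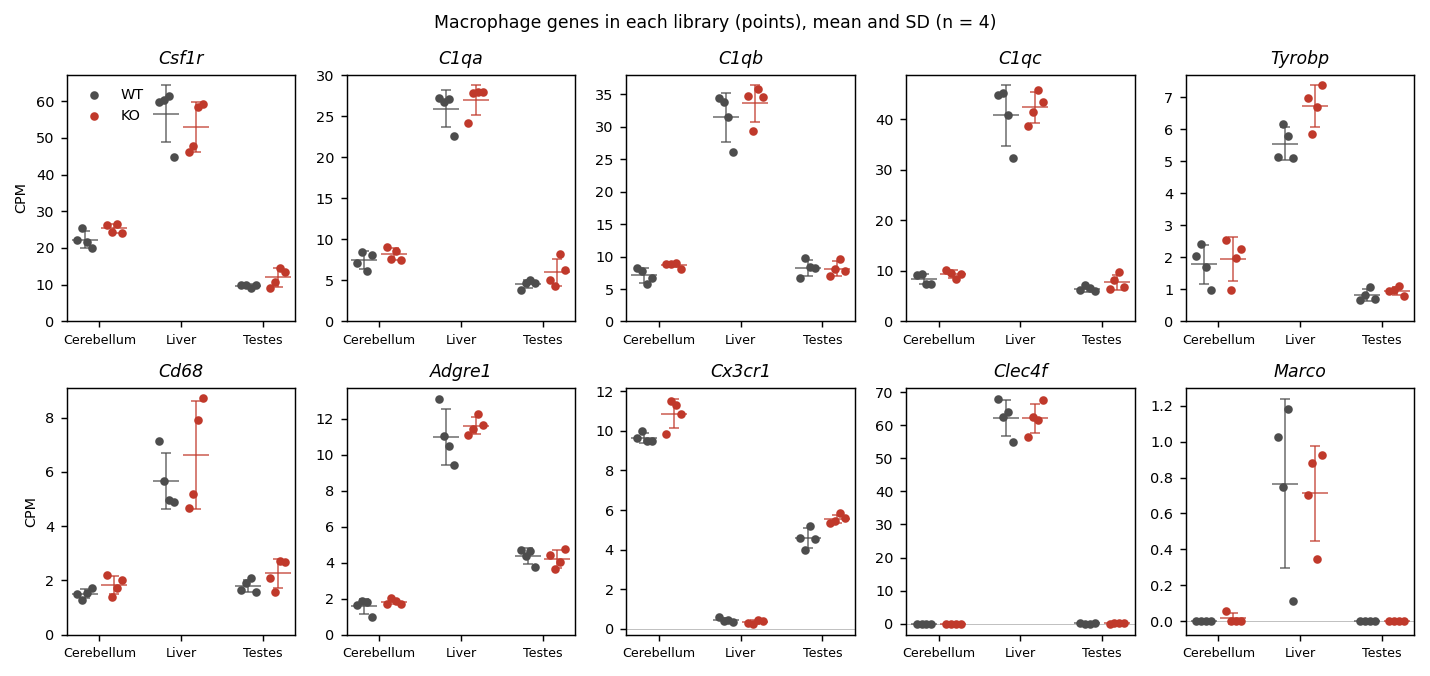
CPM (vertical axis) of each of the 10 genes in every library, WT in grey and KO in red, in cerebellum, liver and testes, with 4 points, their mean and SD per group. Points of WT and KO interleave in nearly all panels, and the 4 KO testes points of Cx3cr1, from 5.34 to 5.84 CPM, lie above the 4 WT points, from 3.97 to 5.18 CPM.

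Whether the KO difference varied between tissues was tested by contrasts in a limma-voom model of all 24 libraries, on 11112 genes that passed the level limit in each tissue. Of 6 members tested, 0 passed in any contrast. The shares of all genes that passed were 7.67% for cerebellum minus liver, 15.9% for testes minus liver and 14.5% for testes minus cerebellum. The lowest p was that of C1qb, whose KO difference in testes was lower than that in cerebellum by -0.43 ± 0.178 on the log2 scale (SE, limma adjusted p = 0.107, unadjusted p = 0.0251). Without testes WT replicate 1, the lowest WT testes library for C1qb at 6.76 CPM, the value was -0.53 (limma adjusted p = 0.0302) and passed, the only such case among the members and contrasts. The edgeR fit called 0 members in each contrast.

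Libraries differed in ways that ran across members. In liver, WT replicate 4 had the lowest level of all 10 members among WT libraries, and KO replicate 5 the lowest of 6 members among KO libraries. These libraries and KO replicate 6 also gave the highest shares of counts to the noncoding RNAs named above, at 31.0%, 27.2% and 26.4%, against 17.5% to 23.1% in the other liver libraries. Over the 8 liver libraries the log2 CPM of every tested member ran against that share, with Pearson r from -0.90 for C1qc to -0.32 for Tyrobp. CPM totals include these RNAs, so a higher share lowers the CPM of every other gene, and the negative sign is in part built in. The r of all genes was not computed and the libraries also differ in depth, so these values are a description only. With the noncoding RNAs left out before normalization the liver change of Csf1r was -0.04 and 0 members were called. In cerebellum and testes the correlations with the share were above 0, from 0.32 to 0.85 and from 0.02 to 0.86.

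In testes, KO replicate 7 had the highest level among KO libraries for 7 of the 8 members with a WT mean of at least 0.3 CPM. Its median log2 distance from the WT mean was 0.50, against 0.05 to 0.21 for the other KO libraries. With sample quality weights the testes estimates of Csf1r, Cd68 and C1qa came to -0.0023, -0.09 and -0.05. In cerebellum the 4 KO libraries had median distances of 0.16 to 0.28 and the WT libraries of -0.12 to 0.17. The map of distances shows these rows and columns.

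**Figure D5:**
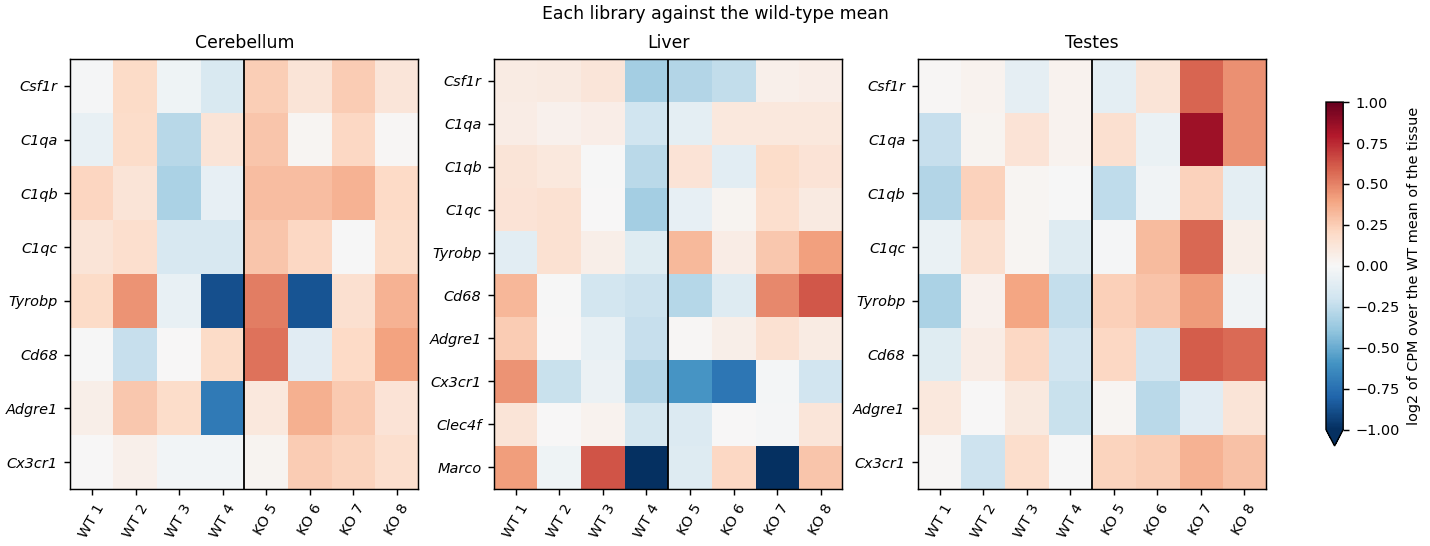
Log2 of the CPM over the WT mean of the tissue (colour, blue lower and red higher, cut off at -1 and 1) for each gene (rows) and library (columns, WT 1 to 4 and KO 5 to 8), for genes with a WT mean of at least 0.3 CPM. In liver the column of WT replicate 4 is blue for all 10 genes, and in testes the column of KO replicate 7 is the reddest, with a median of 0.50.

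Among the 6 members tested in all tissues, all 15 pairs had a positive Pearson r of log2 CPM over 24 libraries after each tissue was centred, from 0.04 for Adgre1 with C1qa to 0.72 for Csf1r with C1qa, with a median of 0.51. The neighbouring genes C1qb and C1qc, whose upstream sequences are given above, had r of 0.78, 0.81 and 0.63 in cerebellum, liver and testes over 8 libraries each. Other pairs were as close. Over 24 libraries r was 0.71 for Csf1r with C1qc and 0.71 for C1qb with C1qc, and in liver it was 0.89 for C1qa with C1qc. Within a tissue all 28 pairs were positive in liver, 25 of 28 in cerebellum and 16 of 21 in testes, where Adgre1 ran against C1qc and C1qb at -0.36 and -0.34. These values share library depth and normalization, and 11111 other genes show the background. The nearest gene to Csf1r was Vps18 (r = 0.92), and C1qa, its nearest member, came at rank 956. The nearest member to C1qb was C1qc, at rank 28, and that to C1qc was Csf1r, at rank 165.

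The 3 genes most like each of the 6 members, by the same measure over 24 libraries, had r from 0.71 to 0.92 and included none of the 10 members. They were Vps18, Ncdn and Ttyh2 for Csf1r, Amigo2, Grk2 and Gnai2 for C1qa, Rpsa, Farsa and Tk2 for C1qb, and Cnn3, Tuba1b and Ctsb for C1qc. Those of Cd68 were Sptan1, Fgd1 and Smarcc2, and those of Adgre1 were Crip1, Tgif1 and Dysf. Of the 18 genes, 1 belonged to the macrophage lists described next, Ctsb, a lysosomal protease.

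Other genes of macrophage biology were taken from 10 lists of 117 distinct genes. In cerebellum 2 of the 68 tested passed, both higher in KO, or 2.94% beside 6.44% of all genes. In liver 8 were higher and 1 lower of 88 tested, or 10.2% beside 5.91%. In testes 13 were higher and 5 lower of 78 tested, or 23.1% beside 20.5%. The median log2 change over the tested genes was 0.09, 0.10 and 0.17. These counts moved with single libraries: in liver they were 3 to 8 with a library left out, against 9, with 3 without WT replicate 1 or KO replicate 8, and in testes 4 to 24, against 18, with 4 without WT replicate 4, 6 without WT replicate 3, 9 without KO replicate 7 and 11 without WT replicate 1. In liver they were 4 without WT replicate 2 or KO replicate 5 and 5 without KO replicate 6. In cerebellum they were 1 to 5, against 2, with 1 without WT replicate 1 or 3 or KO replicate 5 or 7 and 5 without KO replicate 6.

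Among the factors that build and sustain macrophages, 1 of 9 tested genes passed in cerebellum and 3 of 10 in liver, all higher in KO, and 0 of 8 in testes. Maf, a transcription factor of resident macrophages that other cells also use, rose in cerebellum from 97.1 ± 6.61 to 109 ± 4.71 CPM (SD, n = 4; log2 change 0.18, limma adjusted p = 0.0469) and in liver from 42.3 ± 1.98 to 52.1 ± 0.664 CPM (0.34, limma adjusted p = 0.0223). Irf5, an interferon regulatory factor, rose in liver from 14.8 ± 0.893 to 20.05 ± 2.85 CPM (0.46, limma adjusted p = 0.0152), and Tgfb1, a cytokine that maintains microglia and Kupffer cells, from 11.9 ± 1.197 to 15.0 ± 0.888 CPM (0.34, limma adjusted p = 0.0304). WT and KO libraries of Irf5, Tgfb1 and liver Maf did not overlap. The Tgfb1 call was lost with any library left out, that of cerebellum Maf with 6 of 8, that of liver Maf with 4 of 8 and that of Irf5 with 2 of 8. In the 8 other settings, which kept all libraries, cerebellum Maf was called in 3, Tgfb1 in 6, and liver Maf and Irf5 in all 8.

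In the list of lysosomal and activation genes Lpl, a lipoprotein lipase that macrophages and other cells secrete, rose from 14.7 ± 1.66 to 36.7 ± 4.00 CPM in liver (SD, n = 4), a log2 change of 1.33 ± 0.0927 (SE, limma adjusted p = 6.24e-05). Lyz2, the myeloid lysozyme, rose from 26.1 ± 3.06 to 33.9 ± 1.67 CPM (0.41, limma adjusted p = 0.00709). Ctsd, a lysosomal protease, fell from 321 ± 24.9 to 268 ± 11.9 CPM (-0.19, limma adjusted p = 0.0420), and that call was lost with any library left out. Of this list 2 of 13 rose and 1 fell in liver, 1 of 13 rose in cerebellum and 4 of 12 rose in testes. In cerebellum it was Ctsb, from 352 ± 14.5 to 410 ± 7.41 CPM (0.22, limma adjusted p = 0.00392), without overlap. In testes Lgmn, an endopeptidase of lysosomes, rose from 33.7 ± 1.32 to 49.0 ± 9.85 CPM, Axl, a receptor for dying cells, from 65.1 ± 3.48 to 90.2 ± 15.6 CPM and Apoe, the lipid carrier, from 60.2 ± 6.46 to 83.6 ± 14.1 CPM (limma adjusted p = 0.0167, 0.0176 and 0.0208).

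In the complement list, which leaves out C1q, C1s1, a protease that C1q carries, rose in testes from 12.9 ± 1.22 to 19.6 ± 2.10 CPM (log2 change 0.50, limma adjusted p = 0.00498), and its WT and KO libraries did not overlap. Of this list 0 of 7 passed in cerebellum, 1 of 10 in liver and 2 of 11 in testes. Hepatocytes make much of the complement in liver, where the list summed to 7785 to 11934 CPM.

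Markers of other cells moved in liver beside these calls. Cd4 was higher in KO by 0.97 on the log2 scale, 1 of 5 lymphocyte genes tested, with sums of 12.6 to 16.2 CPM in the WT and 16.0 to 17.3 CPM in the KO libraries. Rgs5 was higher by 0.42, 1 of 6 genes of stellate cells, and Apoa1 by 0.32, 1 of 6 of hepatocytes. Of 7 endothelial genes and 3 blood genes 0 passed, with medians of 0.20 and -0.83. No gene of these 5 lists was at 0 in all liver libraries, and the part of these differences in the macrophage values was not tested.

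Lists of markers of particular macrophages gave few calls outside testes. Of all tested genes 6.44% passed in cerebellum and 5.91% in liver, against 20.5% in testes, so fewer calls outside testes were the rule for all genes. Of the microglia list 0 of 11 passed in cerebellum, its own tissue, and 0 of 8 in liver, and of the Kupffer cell list 0 of 11 passed in liver and 0 of 5 in cerebellum. Among Tyrobp partners 0 of 11 passed in cerebellum and 0 of 13 in liver, and Plcg2, a phospholipase downstream of Trem2, fell in testes from 12.7 ± 0.695 to 10.8 ± 1.15 CPM (-0.35, limma adjusted p = 0.0250). Mrc1, the mannose receptor of border and interstitial macrophages, rose in liver from 38.1 ± 2.08 to 45.6 ± 1.51 CPM (0.29, limma adjusted p = 0.0485) and in testes from 39.8 ± 4.73 to 52.9 ± 6.71 CPM (0.35, limma adjusted p = 0.0251), without overlap in either. Sinusoidal endothelium also carries Mrc1, and the liver call was lost when any of 6 of the 8 libraries was left out, the testes call when any of 3 was. In the 8 settings that kept all libraries the liver Mrc1 call was made in 4 and the testes call in all 8. In its list 0 of 2 passed in cerebellum, 1 of 2 in liver, and 1 rose and 1 fell of 4 in testes, where Ms4a6c went from 2.11 ± 0.359 to 1.53 ± 0.221 CPM (-0.57, limma adjusted p = 0.0325), a call lost when any of 6 of the 8 libraries was left out.

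In testes the microglia list gave 3 higher and 1 lower of 9. It summed to 751 to 774 CPM in WT testes and to 60.9 to 69.8 CPM in WT cerebellum. Aif1 alone, at 188 CPM, stood above the sum of the 10 members in WT testes, 38.4 to 42.7 CPM. Which cells carry these RNAs in testes was not tested. Olfml3 rose from 13.6 ± 1.11 to 24.4 ± 5.33 CPM and Fcrls from 1.18 ± 0.178 to 1.99 ± 0.374 CPM, while Aif1, which encodes Iba1, fell from 188 ± 3.49 to 149 ± 21.2 CPM (log2 changes 0.73, 0.63 and -0.33, limma adjusted p = 0.00564, 0.0288 and 0.0174). The Kupffer list gave Slc40a1, the iron exporter, higher (0.49, limma adjusted p = 0.0408) and Nr1h3, a sterol receptor, lower (-0.55, limma adjusted p = 0.00681) of 7. Scavenger receptors gave Scarb2 higher (0.39, limma adjusted p = 0.0121) and Msr1 lower (-0.40, limma adjusted p = 0.0371) of 8, and 0 of 4 passed in cerebellum and 0 of 8 in liver. Antigen presentation gave 0 of 4, 0 of 8 and 0 of 6 in cerebellum, liver and testes. Inflammatory genes gave 0 of 3, 1 of 5 and 1 of 3, namely Il1rn in liver, from 0.630 ± 0.253 to 1.58 ± 0.621 CPM (1.41, limma adjusted p = 0.0496), and Nfkbia in testes (0.30, limma adjusted p = 0.0397). The Il1rn call was lost in all 4 fits with a library left out in which it could be tested, that of Slc40a1 in 7 of 8, and those of Msr1 and Nfkbia in 5 of 8 each. Those of Fcrls and Plcg2 were lost in 4 of 8, those of Axl and Apoe in 2 of 8, and those of Aif1 and Lgmn in 1 of 8. The calls of Ctsb in cerebellum, of Lpl and Lyz2 in liver, and of C1s1, Olfml3, Nr1h3 and Scarb2 in testes were kept with every library left out in turn. In the 8 settings that kept all libraries, Fcrls, Slc40a1, Nfkbia, Il1rn and Ctsd were called in 6. Plcg2, Ms4a6c, Msr1, Apoe and Ctsb were called in 7.

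Markers of other cells moved with genotype in testes beside these calls. Of 8 Sertoli cell genes 6 were higher in KO, and their summed level was 308 to 349 CPM in WT and 413 to 562 CPM in KO. Of 7 spermatid genes 3 were lower, with sums of 10685 to 11104 CPM in WT and 7701 to 9943 CPM in KO. Of 6 Leydig cell genes 1 was higher, with sums of 1033 to 1124 and 932 to 1555 CPM. No gene of these lists was at 0. The part of these differences in the macrophage values was not tested. Apart from the cerebellum lists given above, the remaining lists of other cells gave at most 2 calls in a direction in any tissue. Of the 14 monocyte and neutrophil genes 4 were at 0 in all liver libraries and 2 in all testes libraries, and the list summed to at most 4.33, 6.16 and 20.3 CPM in cerebellum, liver and testes, and lymphocyte genes to at most 4.55, 17.3 and 12.6 CPM, below the sum of the 10 members in cerebellum (55.4 to 70.7 CPM) and liver (201 to 262 CPM). In testes the members summed to 38.4 to 42.7 CPM in WT and 40.5 to 55.9 CPM in KO.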

How the data were processed

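Bulk RNA was measured with stranded, ribosome-depleted, paired-end libraries. The authors aligned reads with STAR to mm10, counted GENCODE M21 genes with RSEM and deposited expected counts, not normalized. Tool versions and the strand setting were not given in the sources used here. Between 12.3% and 16.6% of nonzero values were not whole, and all columns matched a labelled sample.

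Genes with at least 1 CPM in at least 4 of a tissue's 8 libraries were fitted by limma-voom (limma 3.58.1, R 4.3.3) after quantile normalization, as in the study's methods, with Benjamini-Hochberg adjustment over all tested genes and a threshold of 0.05. Tissue contrasts used TMM factors (edgeR 4.0.16) on 12 WT or all 24 libraries. Level per kilobase divided CPM by the exon length of the gene. A zero was given the limit of 3 counts of a library, which covers counting error only. Alternatives, their effects given in the closing section, were DESeq2 1.42.0 and edgeR (on counts rounded to whole numbers), TMM or library totals, other level limits, sample weights, noncoding RNAs left out, a single model of 24 libraries, a replicate block and each library left out. Steps were tested on simulated data.

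The 10 genes, the 10 related lists and 14 lists of other cells were chosen with earlier results of these data known. Named genes were the members, then up to 3 called genes with the lowest p per related list and tissue, then the 3 genes most like each member by tissue-centred correlation. Shared replicate numbers were not stated to mark shared mice, and no pair of replicates was a copy (chi-square per gene 2.31 to 346 over 36 pairs). A gene of the complement list that the rule names is not reported here.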

Additional observations from a re-analysis of the deposited data

Results flagged for a closer look

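Dixon's test at 95% for groups of 4 was applied to 52 groups of member values, where chance alone gives about 1 in 20 groups such a value, and 3 values stood apart. Csf1r in liver WT replicate 4 was 44.8 CPM, while the other 3 WT libraries lay between 59.8 and 61.4 CPM. C1qa in the same library was 22.6 CPM, against 26.7 to 27.3 CPM in the others. C1qa in liver KO replicate 5 was 24.2 CPM, against 27.9 to 28.0 CPM in the other KO libraries. These are the liver libraries with the highest noncoding RNA shares, at 31.0% and 27.2%. CPM totals include these RNAs, and the part of that share in these values was not tested. Without WT replicate 4 or without KO replicate 5 no member was called in liver. No member's KO difference varied between tissues beyond the threshold.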

How the results depend on the processing

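No member passed in any tissue for KO against WT under the 16 alternatives per tissue, and the WT tissue contrasts changed no direction. Changes of sign were confined to estimates that passed no threshold, and their causes were not tested. With sample quality weights the testes estimates were -0.088 for Cd68, -0.0023 for Csf1r and -0.052 for C1qa. With a library left out the KO estimates ran from -0.011 to 0.28 for Adgre1 and from -0.18 to 0.35 for Tyrobp in cerebellum, and from -0.11 to 0.0064 for Csf1r and from -0.0064 to 0.048 for Clec4f in liver.

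For the KO difference between tissues, Cd68 in cerebellum minus liver was 0.021 with a replicate block, 0.016 with edgeR and 0.024 with a level limit over 24 libraries. With that limit Cd68 was 0.037 in testes minus liver, and in testes minus cerebellum Cd68 was 0.013, Csf1r 0.051 and C1qc 0.056. With quantile normalization of 24 libraries C1qc was -0.039 in testes minus liver. With a library left out, cerebellum minus liver ran from -0.13 to 0.13 for Cd68, -0.057 to 0.24 for Adgre1 and -0.030 to 0.12 for C1qa. Testes minus liver ran from -0.20 to 0.054 for Cd68 and -0.056 to 0.11 for C1qc. Testes minus cerebellum ran from -0.18 to 0.059 for Cd68, -0.11 to 0.080 for Csf1r, -0.024 to 0.25 for C1qa and -0.13 to 0.044 for C1qc, with 0 to 1 members called. Same-numbered libraries of different tissues had deviations correlated from -0.18 to 0.27 over 24 pairs, with the own number best in 8, and the replicate block changed no call.

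The related genes called, under alternatives chosen after seeing the data, numbered 2 in cerebellum, with 4 by edgeR, 1 with no level limit, 1 with a limit of 0.1 CPM, 8 with sample weights, 0 in a single model of 24 libraries and 1 to 5 with a library left out. In liver they numbered 9, with 17 by DESeq2, 19 with sample weights and 3 to 8 with a library left out. In testes they numbered 18, with 11 with no level limit, 28 with sample weights and 4 to 24 with a library left out. Depth limits Marco, Cx3cr1 in liver and Tyrobp in testes, which lay below the level limit.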
